A study of Homo sapiens and Mus musculus with 14 samples.

Results

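The regions described here are ATAC-seq peaks that were well scored in control MDA-MB-436 cells and had no overlapping peak in either of 2 SMARCAL1 knockout clones. They were chosen on measured values: a control score of at least 7.83, a position on chromosomes 1 to 22 or X, and no shared base with any peak of the clone 1 or clone 2 list. Of 64806 control peaks, 19107 passed the score and chromosome limits and are called strong below, and 1051 of these had no clone peak on them. The 1051 peaks, 5.50% of the strong control peaks (exact binomial 95% interval 5.18 to 5.83), are called members. As the rule fixed this count, it is a description and no test was made of it.

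MDA-MB-436 is an established human breast adenocarcinoma line. The control group is 3 libraries of cells with the control genotype, the first knockout clone (SL1KO clone 1) is 3 libraries of the same batch 1, and the second (SL1KO clone 2) is 2 libraries of batch 2. All were grown in DMEM with bovine growth serum, penicillin and streptomycin. Each knockout is a single clone, so SMARCAL1 loss, clone and, for clone 2, batch cannot be told apart, and the labels do not say how the knockouts were made. The 3 libraries each of reconstituted and Smarcal1 knockout B16F10 mouse melanoma cells were not analysed here.

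In ATAC-seq a transposase inserts adapters where DNA is not wrapped tightly in nucleosomes, so peaks mark open promoters and distal elements such as enhancers and insulators. Promoters of widely used genes tend to give broad peaks that vary little between cells, whereas distal peaks are narrower and differ more between cell states. SMARCAL1 is an ATP-dependent enzyme that reanneals single-stranded DNA and reverses replication forks that have stalled, and the series links it to innate immune signalling and to PD-L1, the product of CD274.

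Of the members, 106 lay over the RefSeq promoter window of a protein-coding gene, which runs from 250 bases before to 50 after a transcription start. The windows below belong to the 6 such members with the highest control scores, and they are shown because they are the promoters whose control peak scored highest while no clone peak lay on it. They are in GRCh38.p14, the assembly of the hg38 primary chromosomes, and are written 5′ to 3′ on the strand of the gene. The windows are EIF4EBP2 (chr10:70403895-70404194, plus strand), ZNF608 (chr5:124748775-124749074, minus strand), ACOX3 (chr4:8440674-8440973, minus strand), NGRN (chr15:90265413-90265712, plus strand), CSAD (chr12:53180597-53180896, minus strand) and DNAJC5 (chr20:63894876-63895175, plus strand). Capitals mark matches on either strand to the letters searched. These were GGGCGG for the GC box and CCAAT for the CCAAT box. The cyclic AMP response element, called CRE here, was searched as TGACGTCA and the site of AP-1 as TGACTCA, while TATAAA stood for the TATA box.
EIF4EBP2: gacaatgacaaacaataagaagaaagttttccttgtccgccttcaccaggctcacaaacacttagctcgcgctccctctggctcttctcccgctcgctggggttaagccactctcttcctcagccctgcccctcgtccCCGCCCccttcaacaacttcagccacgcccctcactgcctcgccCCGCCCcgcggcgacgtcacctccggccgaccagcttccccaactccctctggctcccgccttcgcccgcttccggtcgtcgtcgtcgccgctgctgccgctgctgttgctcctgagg
ZNF608: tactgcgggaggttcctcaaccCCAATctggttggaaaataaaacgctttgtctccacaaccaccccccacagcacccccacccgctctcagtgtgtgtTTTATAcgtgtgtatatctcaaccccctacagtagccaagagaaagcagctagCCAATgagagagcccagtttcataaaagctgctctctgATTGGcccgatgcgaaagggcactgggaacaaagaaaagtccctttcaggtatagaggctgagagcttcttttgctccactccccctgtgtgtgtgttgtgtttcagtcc
ACOX3: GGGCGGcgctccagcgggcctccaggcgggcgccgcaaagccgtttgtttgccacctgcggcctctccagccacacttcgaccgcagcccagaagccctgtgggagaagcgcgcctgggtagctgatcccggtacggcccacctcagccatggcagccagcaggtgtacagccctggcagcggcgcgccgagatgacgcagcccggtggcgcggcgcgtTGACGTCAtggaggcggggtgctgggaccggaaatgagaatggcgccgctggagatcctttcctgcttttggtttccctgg
NGRN: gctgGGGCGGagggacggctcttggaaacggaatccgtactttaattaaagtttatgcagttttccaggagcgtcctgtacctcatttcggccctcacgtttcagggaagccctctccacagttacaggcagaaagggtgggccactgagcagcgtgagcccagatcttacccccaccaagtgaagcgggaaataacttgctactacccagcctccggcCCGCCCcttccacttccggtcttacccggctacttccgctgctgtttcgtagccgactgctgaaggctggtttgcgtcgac
CSAD: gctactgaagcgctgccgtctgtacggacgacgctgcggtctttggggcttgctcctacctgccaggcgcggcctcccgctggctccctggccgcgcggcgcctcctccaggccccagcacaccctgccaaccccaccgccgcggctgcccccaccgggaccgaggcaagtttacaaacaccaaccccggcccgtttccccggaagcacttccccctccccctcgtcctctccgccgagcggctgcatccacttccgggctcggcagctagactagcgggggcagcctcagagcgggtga
DNAJC5: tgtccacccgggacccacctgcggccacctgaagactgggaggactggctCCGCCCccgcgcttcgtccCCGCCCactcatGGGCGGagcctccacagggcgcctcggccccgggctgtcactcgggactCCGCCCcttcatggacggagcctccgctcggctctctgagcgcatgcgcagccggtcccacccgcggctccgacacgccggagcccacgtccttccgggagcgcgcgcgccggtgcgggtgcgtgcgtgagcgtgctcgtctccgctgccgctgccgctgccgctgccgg

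The EIF4EBP2 window held 2 GC boxes and 64.3% G or C, and the NGRN window 2 GC boxes and 57% G or C. The DNAJC5 window held 4 GC boxes at 75.7% G or C. Of all promoter windows, 56.3% held a GC box and the median was 62.3% G or C, above the NGRN value. The ACOX3 window held 1 CRE and 1 GC box at 68.7% G or C, and the ZNF608 window 3 CCAAT matches and 1 TATA match at only 50.7% G or C. The CSAD window, at 71% G or C, held no match to these letters. No AP-1 match was found in the 6 windows.

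The lists carry no header, and their score was read from its values as the −log10 of the authors' peak-calling p-value. The members took the lower end of the strong range: their scores ran from 7.83 to 15.2 with a median of 8.46, against a median of 11.98 and a highest value of 104 for the 15225 strong peaks found in both clones. The share absent in both clones was 15.98% (748 of 4682) at scores from 7.83 to 9, 6.36% from 9 to 10 and 3.94% from 10 to 11. It was 0.537% (13 of 2422) from 12 to 14 and 0.0556% (3 of 5395) above 14. Almost no peak in the upper part of the control list was therefore a member. The 3 exceptions above 14 are described below. Just inside the threshold were members nearest VRK1 (7.8321), in AGBL4 (7.83445) and at BICRA (7.83704), and just outside it were absent peaks in FGF16 and near MGARP (both 7.82953) and near TPP2 (7.8294).

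Members were also narrow. Their median width was 357 bp (quartiles 250 and 500.5, range 126 to 1516), against 789 bp (quartiles 551 and 1123) for strong peaks found in both clones, 559 bp for those found in clone 1 only and 471 bp for those found in clone 2 only. Of strong peaks up to 250 bp wide, 48.5% (265 of 546) were absent in both clones, against 11.5% (523 of 4553) between 250 and 500 bp, 2.71% (234 of 8649) between 500 and 1000 bp and 0.541% (29 of 5359) above 1000 bp. The plot of score against width shows the members along its lower left edge. Width was not named in the rule but is not independent of it, since a narrower peak is less easily overlapped by a clone peak. It also went with the control score, which the rule used. The median width of strong peaks was 539 bp at scores from 7.83 to 9 and 896 bp above 14. When a clone peak within 200 or 1000 bp also counted as found, 1029 and 952 peaks were still absent, with median widths of 360 and 359 bp. So few peaks were removed that these widths say little about ease of overlap.

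**Figure D1:**
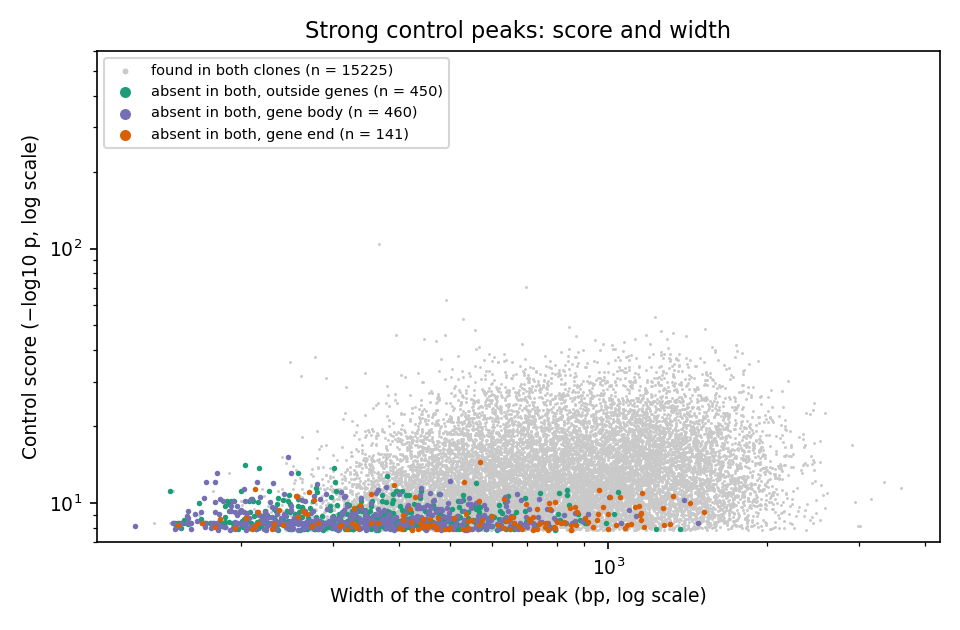
Control score (−log10 p, log axis) against width (bp, log axis) of each strong control peak, for the 15225 found in both clones (grey) and for the 1051 absent in both, coloured by position. The absent peaks lie between 7.83 and 15.2 and between 126 and 1516 bp, and those at gene ends (orange) reach the larger widths.

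The control list was merged from 3 libraries, and the form of each score shows in part how many calls stand behind it. A score with more than 5 decimals is a mean over calls that were merged. Such means made up 33.4% of the members (351 of 1051; 95% interval 30.5 to 36.3) and 67.8% of the strong peaks found in both clones, with 62.4% and 57.9% for those found in clone 1 only and in clone 2 only. Means over at least 3 calls, recognised by still more decimals, were 23.03% (242) of the members against 61.3% of the peaks found in both clones. The difference in the share of means was -34.4 percentage points (95% interval -37.4 to -31.5). It was -23.6 points (-27.5 to -19.7) with the 2 classes weighted alike over strata of score and width. The outer strata are open-ended, so score and width were balanced only in part. These intervals cover counting error only, and peaks are not replicates of a condition.

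At the other end, some scores equal the −log10 Poisson p of a single library's call against its constant background. This gives the pileup, the count of reads or fragments stacked at the summit, whose unit the labels do not give. In the control list 3 such series were found, with background pileups of 2.02, 2.01 and 1.97. A strong peak on any of them needed a pileup of at least 15. Of the members, 152 (14.5%; 95% interval 12.4 to 16.7) lay on one of these series, against 23 (0.151%) of the 15225 strong peaks found in both clones. Their pileups were 15 to 22, 15 to 21 and 15 to 18 on the 3 series, which held 96, 37 and 19 members. The members traced to 1 call in 1 control library thus rested on a pileup of 15 to 22. Of the 253 strong control peaks on a series, 60.1% (95% interval 53.8 to 66.2) were members. By series the shares were 64.0% (96 of 150), 48.7% (37 of 76) and 70.4% (19 of 27). Only part of single calls can be recognised in this way, and members that are neither means nor on a series are of unknown make-up.

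The 2 measures moved together. Among strong peaks up to 250 bp wide, 58.2% of those whose score was not a recognisable mean were absent in both clones, against 16.5% of those with a mean. Between 250 and 500 bp the values were 18.9% and 6.50%, between 500 and 1000 bp 3.49% and 2.31%, and above 1000 bp 0.564% and 0.531%. The plot of absent shares gives these values with their intervals. The clone libraries differ in depth too: the background pileups read from the clone 1 scores were 1.91, 2.45 and 3.79, and from the clone 2 scores 0.985 and 0.723. An absent peak is a region without a call at that depth, not one shown to be closed, and the part that depth has in the absences was not tested.

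**Figure D2:**
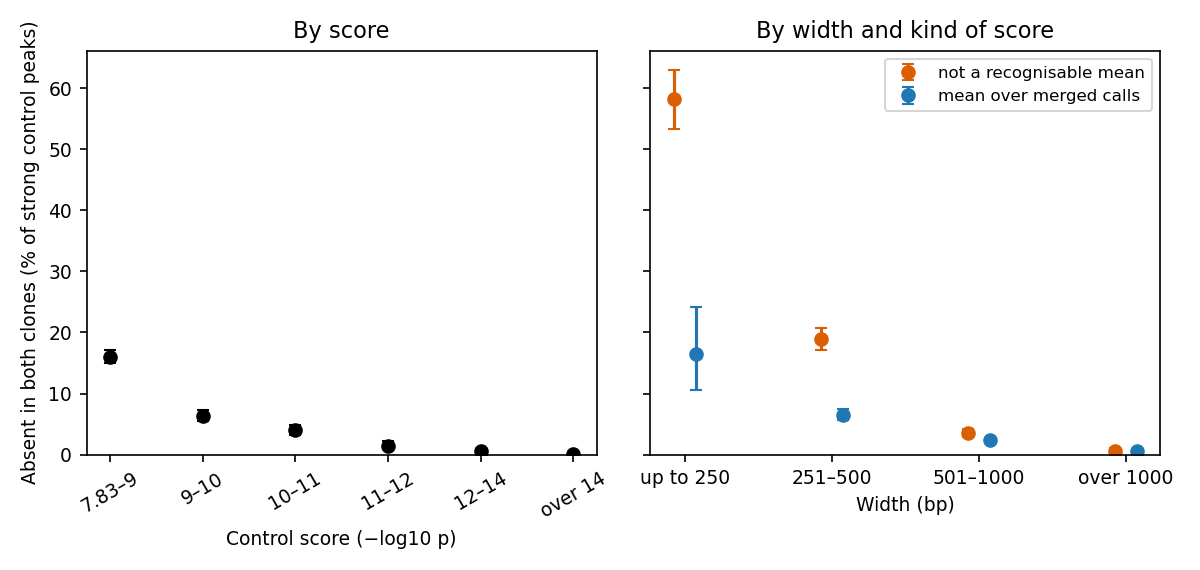
Share of strong control peaks absent in both clones (%), by control score (left) and by width with the kind of score (right); points are shares and bars exact binomial 95% intervals. The share falls from 15.98% to 0.0556% over the score classes, and among peaks up to 250 bp it is 58.2% without and 16.5% with a recognisable mean.

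The 3 highest-scoring members were of different kinds. The highest, at 15.2, lay inside TBC1D5, which encodes a Rab GTPase-activating protein of endosomal trafficking (chr3:17686725-17686970). It was a single call with a pileup of 22, 246 bp wide, and the nearest clone 1 and clone 2 peaks were 17412 and 17563 bp away. The second, at 14.5, covered the start of EIF4EBP2, whose product binds eIF4E and holds back cap-dependent translation (chr10:70403845-70404413). It was 569 bp wide, with a clone 1 peak 995 bp away and the nearest clone 2 peak 21049 bp away. The third, at 14.2, was a single call with a pileup of 21, 3617 bp from the olfactory receptor gene OR5A2 (chr11:59430030-59430233).

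The next members by score were mostly distal. A 301 bp peak at 13.8 lay 263326 bp from IRS2, the gene of an insulin receptor adaptor, and a 217 bp peak at 13.8 lay 176997 bp from MAT2B, a regulatory subunit of methionine adenosyltransferase. Both were means over merged calls, with the nearest clone peak 144276 and 46453 bp away. Members inside GUCY2F (13.2), a retinal guanylate cyclase, and ACSL4 (13.1), a fatty acid ligase, were both on chromosome X, and another single call at 13.1 lay 274801 bp from MTX2. A peak 89523 bp from DDIT4L scored 12.8 and had clone peaks 2134 and 2244 bp away. The tenth, a 500 bp mean at 12.2, lay inside ZBTB38, which encodes a zinc finger protein that binds methylated DNA. Of these 10 members, 1 was at a gene end.

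Members lay inside genes or between them more often than at gene ends, where a gene end means at most 1000 bp from the annotated start or stop of a protein-coding gene. Gene ends held 141 members (13.4%; 95% interval 11.4 to 15.6), gene bodies 460 (43.8%) and the space outside genes 450 (42.8%). Of strong peaks found in both clones, 38.4% lay at a gene end, 26.5% in a gene body and 35.2% outside genes. Peaks found in clone 1 only had a gene-end share of 34.7%, and those found in clone 2 only of 10.7%. The median distance from a member to the nearest coding start was 47177 bp, against 24969 bp for peaks found in both clones, while the share over 100 kb away was similar at 30.4% and 28.8%.

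The lower gene-end share went with the members' narrow width. Members stood -24.9 percentage points (95% interval -27.1 to -22.7) from the peaks found in both clones. The difference was -18.8 points (-21.3 to -16.4) when both classes were weighted alike over score strata. Weighted alike over width strata, the gene-end shares were 13.4% and 12.2%. The difference was then 1.19 points (-0.997 to 3.38), of opposite sign and with an interval that includes 0. Over strata of score and width together it was 0.989 points (-1.53 to 3.51), with as few as 7 found-in-both peaks in a stratum. The top strata are open-ended, so wider and higher-scoring peaks found in both clones stay in the comparison. With equal weight per width stratum, peaks found in clone 1 only had a gene-end share of 19.0% and those found in clone 2 only of 7.90%. Among strong peaks up to 500 bp wide, 24.6% (62 of 252; 95% interval 19.4 to 30.4) of those at a gene end were absent in both clones. The share for the others was 14.98% (726 of 4847; 13.98 to 16.01). These intervals do not overlap, and the median control scores of the 2 sets were 8.77 and 9.44. Between 500 and 1000 bp the shares were 2.69% and 2.71%, and above 1000 bp 0.467% and 0.773%. Only above 1000 bp was the gene-end value visibly the lower, and there the intervals overlap (0.282 to 0.729 and 0.371 to 1.42).

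**Figure D3:**
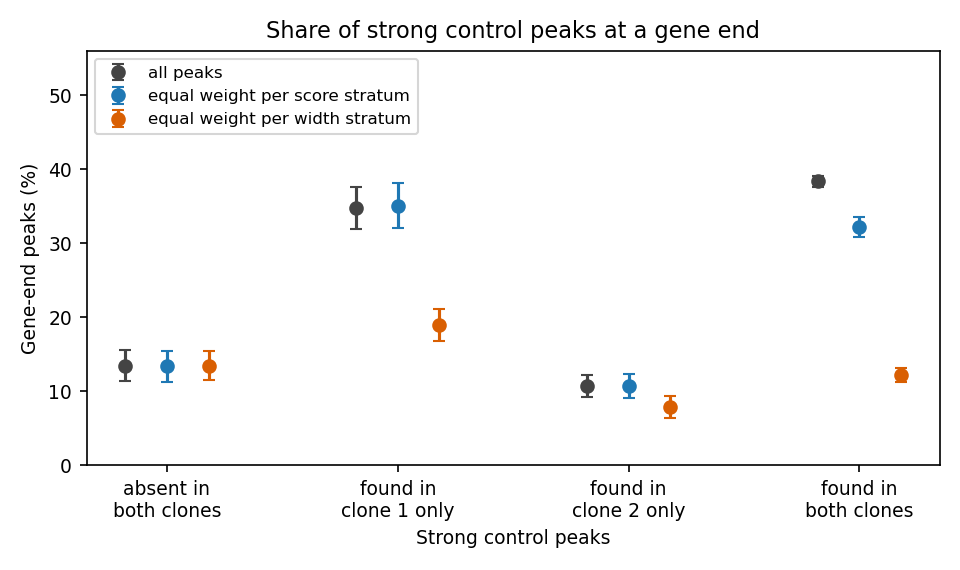
Share of strong control peaks at a gene end (%) in each class, unweighted and with equal weight for each score or width stratum of the members; bars are 95% intervals of counting error. Members have 13.4% against 38.4% for peaks found in both clones, and 13.4% against 12.2% with equal weight per width stratum.

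Members at promoters differed from the other members in make-up. The 106 over a RefSeq promoter window had a median width of 651 bp, and 52.8% (56; 95% interval 42.9 to 62.6) of their scores were means, against medians of 346 and 339.5 bp and 33.7% and 29.8% means for members in gene bodies and outside genes. Of the 152 single calls on a series, 3 were at gene ends, at LATS2, LHFPL5 and ROPN1, each with a score of 8.34665. The 106 members cover promoters of 116 genes. For 101 of these genes neither clone had a peak within 1000 bp of any annotated start, while for 14 clone 1 and for 9 clone 2 had one, 8 genes having one in each. Of the 116 genes, 70 have 1 annotated start, and 66 of these are among the 101. The rule bars a clone peak on the member itself, so the count of 101 follows in large part from the rule. Of all strong control peaks over a promoter window, 1.84% (106 of 5756) were members. Those 5756 peaks had a median width of 1121 bp, against 572.5 bp for strong peaks in gene bodies and 561.5 bp outside genes. Greater width at promoters was thus common to strong peaks, and the promoter members were narrow for promoter peaks. Promoters on chromosome 8 were not used here.

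Several of these promoter members were wide for members. Of those named here, the DNAJC5, ACOX3 and ETS2 peaks were narrower than the median of 1121 bp for all strong promoter peaks. The peak shared by CSAD, a decarboxylase of taurine synthesis, and the zinc finger gene ZNF740 was 1329 bp wide at a score of 10.7, with the nearest clone peaks 86567 and 100417 bp away. The peak over the NGRN and CIB1 starts was 1157 bp wide at 10.96, and that of DNAJC5, a co-chaperone of synaptic vesicles, 1008 bp wide at 10.6. The ACOX3 and TRMT44 promoters, of a peroxisomal oxidase and a tRNA methyltransferase, share a 961 bp peak at 11.3. At another annotated start, ACOX3 had a clone 1 peak and CIB1 a peak in each clone. The widest member, 1516 bp at 9.24, covered the FANK1 start and an end of DHX32. ETS2, an ETS-family transcription factor, had a 902 bp mean at 8.74 and lay 377130 and 364208 bp from the nearest clone peaks.

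Promoter members with roles in RNA handling included ALYREF (9.63), an mRNA export adaptor, and THOC5 (8.31), a subunit of the complex it works with. EXOSC9 (8.34) of the RNA exosome, and UPF1 (8.19) and SMG5 (7.87) of nonsense-mediated decay, were also among them. SMG5 is not a case of a bare promoter, since both clones had a peak at another of its annotated starts. Genes of ribosomes and mitochondria included RPL6 (8.79), a ribosomal protein, and FAU with MRPL49 (8.79), a ribosomal protein fusion gene and a mitochondrial ribosomal gene. MRPL11 (8.04), POLG2 (8.98), the accessory subunit of the mitochondrial DNA polymerase, MTERF2 (9.06) and ETFA (7.96) belonged to the same group. ANAPC11 of the anaphase-promoting complex shares the ALYREF peak. These genes were grouped by role after their values were seen, and no share of the group was compared with other genes.

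Other promoter members were at genes of signalling and of specialised cells. CD68, a lysosomal glycoprotein of macrophages, had a 567 bp peak at 10.2, with another control peak near its start. LATS2 of the Hippo pathway, TRAF5 (8.001), a receptor adaptor, VANGL2 (9.68) of planar cell polarity, and SYN2 (8.28), a synaptic vesicle protein, were further examples. ATP6V1E1, a subunit of the vacuolar proton pump, had a 792 bp mean at 10.1. The histone genes H2AC14 and H2BC14 shared a 1268 bp peak at 9.60. At gene ends with no window in the promoter table, members lay at HMOX1 (8.22), heme oxygenase, at ALDH2 (8.21), aldehyde dehydrogenase, at CAVIN1 (8.76), a caveola coat protein, at PDX1 (8.54), a pancreatic transcription factor, and at RSL1D1 (10.6).

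Some absences at gene ends were near misses. The BTF3L4 and TXNDC12 peak (10.0) had clone peaks 477 and 674 bp away, the one 451 bp from an annotated end of HMGB2 (9.25) had them 40 and 426 bp away, and that at DNAJB4 (8.64) 48 and 426 bp away. At these genes each clone had a call close to the member but not on it.

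The letters of the promoter windows were counted with 1 window for each peak. Median G or C content was 64.3% for the 106 members, 66.7% for the 5200 strong peaks found in both clones, 62.3% for all 22132 windows and 55% for windows without a control peak. The GC box GGGCGG was in 70.8% of member windows (95% interval 61.1 to 79.2), 77.9% of those found in both clones and 56.3% of all windows, against 34.3% of windows without a control peak. CCAAT was in 34.0% (25.04 to 43.8), 41.4% and 34.6%. The AP-1 letters TGACTCA were in 3.77% (4 windows; 1.04 to 9.38), 2.58% and 4.01%, and the CRE letters TGACGTCA in 4.72%, 3.65% and 2.26%. TATAAA was in 11.3% of member windows (12 windows; 5.99 to 18.9), 3.79% (3.29 to 4.34) of those found in both clones and 9.46% of all windows. It was in 6.397% (3.90 to 9.81) of windows under peaks found in clone 1 only and 5.23% (2.28 to 10.04) of those found in clone 2 only. The TATAAA interval of the members lies above that of the peaks found in both clones and overlaps those of the peaks found in 1 clone. Width and score were not balanced in these shares, and a match is a description of letters, not a bound site.

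Most members had no clone peak within 1 kb, but they were not farther from clone peaks than other absent strong peaks. The nearest clone 1 peak was at a median of 17861 bp (lowest 15) and the nearest clone 2 peak at 24646 bp (lowest 157). Strong peaks found in clone 2 only had a median of 21315 bp to clone 1, with 4.85% within 1 kb. Those found in clone 1 only had a median of 30655 bp to clone 2, with 6.19% within 1 kb. A clone 1 peak lay within 1 kb of 84 members (7.99%) and a clone 2 peak within 1 kb of 54 (5.14%), with 99 members (9.42%) having at least 1 of them and 39 (3.71%) one from each clone. Of the near peaks, 60 of 84 in clone 1 and 47 of 54 in clone 2 overlapped another control peak, so they belong to a neighbouring region that control had too. The other 24 and 7 overlapped no control peak. Within 100 kb, 93.3% of members had a clone 1 peak and 87.0% a clone 2 peak. The cumulative plot of distances shows clone 2 peaks farther away than clone 1 peaks at most shares.

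**Figure D4:**
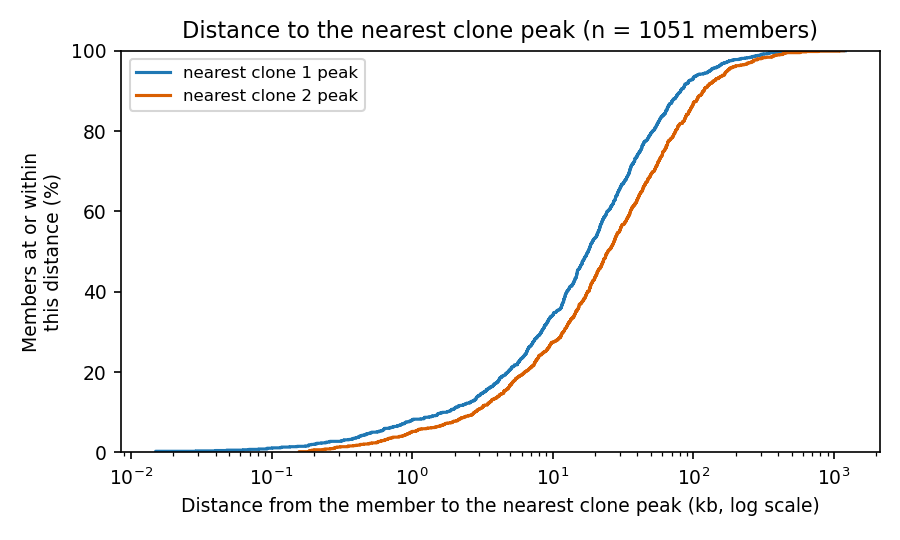
Cumulative share of the 1051 members (%) with a clone peak at or within the distance on the log axis (kb), for the nearest clone 1 and clone 2 peak. Medians are 17861 and 24646 bp, and 84 and 54 members have a clone peak within 1 kb.

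Around the members, strong control peaks were mostly found in the clones, while control peaks of any score were absent in both clones about as often as over the whole list. Within 50 kb, members had a median of 3 other control peaks, and 79 (7.52%) had none. Of these 3370 neighbours of any score, 44.4% were found in clone 1 and 42.8% in clone 2, and 46.1% were absent in both, beside 42.5% around the strong peaks found in both clones and 46.7% of all control peaks. Of 1097 strong control peaks in these windows (a peak near 2 members counts each time), 85.9% were found in clone 1 and 86.0% in clone 2, and 6.56% (72) were absent in both. Around the strong peaks found in both clones the same values were 86.1%, 90.2% and 5.20%, beside 5.50% over all strong peaks. The direction of this difference depends on the window. Within 20 kb the members' value was the lower, 5.15% against 5.45% for peaks found in both clones, and within 200 kb it was the higher, 7.01% against 4.85%. For neighbours of any score the members' value was the higher in each window. It was 45.5% against 41.9% within 20 kb and 48.6% against 43.8% within 200 kb.

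Adjacent strong peaks that were both members occurred in 73 pairs and 6 runs of 3. Adjacent here means next in order among the strong peaks of a chromosome, at any distance. The median span was 106513 bp for the pairs and 353702 bp for the runs of 3, and 1 pair on chromosome 22 spanned 1574335 bp. Whether these counts exceed those given by the members' share of strong peaks alone was not tested. The shortest run of 3, chr19:11528727-11640092, ran from ECSIT, a mitochondrial complex I assembly factor, to the zinc finger gene ZNF627 and spanned CNN1, ELOF1 and ACP5. One on chromosome 4, chr4:8440325-8630908, held the ACOX3 and TRMT44 promoter, a TRMT44 intragenic peak (8.75) and a peak 10499 bp from CPZ (8.89). One on chromosome 2, chr2:48614561-48827413, lay around STON1-GTF2A1L and LHCGR, the luteinizing hormone receptor gene.

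Members were spread over all 23 chromosomes. Their share of strong control peaks was highest on chromosome 22 at 19.0% (12 of 63; 95% interval 10.2 to 30.9), followed by 8.39% on chromosome 16, 7.82% on 17, 7.71% on 12 and 7.47% (161 of 2154; 6.399 to 8.67) on 1. It was lowest on X at 2.99% (22 of 736; 1.88 to 4.49), then 3.84% on 15 and 4.01% on 8. On chromosome 22, 42.9% of strong peaks were absent in clone 2 and 23.8% in clone 1, against 11.2% and 14.6% over all chromosomes. Gene-end peaks are common there: 7 of its 12 members and 61.9% of its strong peaks were at a gene end, and on chromosome 19 the values were 13 of 21 members (61.9%) and 71.6% of strong peaks. On chromosome 2 they were 2 of 87 members (2.30%) and 29.9% of strong peaks. In 283 windows of 10 Mb with at least 20 strong peaks the median share was 4.76% and the highest 26.3% (10 of 38), on chromosome 1 between 10 and 20 Mb. In all, 27 of these windows held no member.

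**Figure D5:**
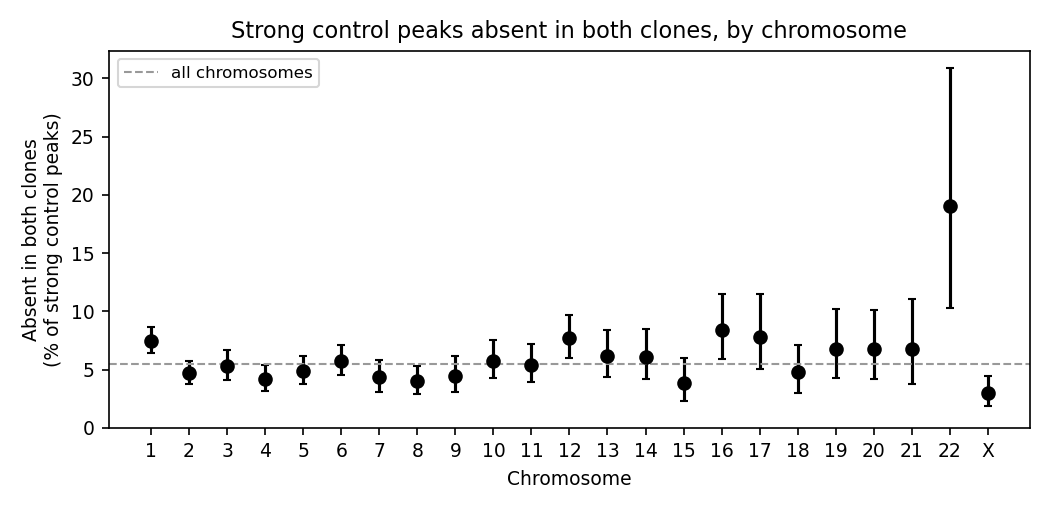
Share of strong control peaks absent in both clones (%) on each chromosome, with exact binomial 95% intervals; the dashed line is the share over all chromosomes, 5.50%. Chromosome 22, with 63 strong peaks, lies at 19.0% and chromosome X at 2.99%.

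Taken with 10 kb on each side, 819 of the 10415 protein-coding genes that had a strong control peak had a member, which is 7.86%. Of 3651 genes with at least 2 strong peaks, 38 (1.04%) had at least 2 members, and 3 genes had 3. ITPR2, an inositol trisphosphate receptor, had 3 members of 7 strong peaks, at 10.8, 9.45 and 8.17. KCNIP1, a potassium channel partner, had 3 of 5, at 8.46, 8.36 and 8.24, and TGFBR3, the TGF-beta co-receptor betaglycan, had 3 of 5, at 10.5, 8.35 and 8.23. The other strong control peaks of these genes were found in at least 1 clone, which follows from the rule.

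For 10 genes both strong peaks were members, namely ABL2, ANKRD13A, CBLC, JAKMIP1, LHFPL3, LHX6, STON1-GTF2A1L, TOPBP1, TOX3 and TRMT44. At LHX6, a homeobox factor of interneurons, the 2 members (8.27 and 8.20) were the only control peaks of any score. At TOX3, a chromatin protein gene, 1 member lay inside the gene (8.35) and 1 outside it (11.1), both single calls with pileups of 15 and 18. RUNX1, a transcription factor of blood and breast epithelium, had 2 of 6 strong peaks as members (8.24 and 8.21), 15773 bp from end to end. PTHLH, the parathyroid hormone-related protein gene, had 2 of 3, one of them a 720 bp mean over a start (8.32). ORC2 of the origin recognition complex and TIAM1, a Rac activator, had 2 each of 3 and 11 strong peaks.

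Over 18 gene lists chosen for the line and for the study's question, 17 of 202 genes with a strong control peak had a member (8.42%; 95% interval 4.98 to 13.1), beside 7.86% of all protein-coding genes. Counted by peak, 20 of 490 strong peaks were members (4.08%), beside 5.07% (860 of 16969). Of the lists that bear on the study's question, checkpoint ligands had 1 gene of 5 and fork and repair genes 1 of 23, described below. Other lists had none: 0 of 9 nucleic acid sensing genes with a strong peak, 0 of 11 interferon-stimulated genes, 0 of 12 NF-kB pathway genes and 0 of 4 AP-1 factor genes. With so few genes the exact intervals reach 33.6%, 28.5%, 26.5% and 60.2%, and each of them includes 7.86%. With 50 kb on each side, 3 of 20 interferon-stimulated genes, 3 of 16 NF-kB genes and 2 of 11 AP-1 genes had a member, and 0 of 16 nucleic acid sensing genes. At that distance 3 of 7 checkpoint ligand genes (95% interval 9.90 to 81.6) and 2 of 27 fork and repair genes had a member. The share over all protein-coding genes with a strong peak there was 11.1% (1554 of 13975). Around CD274 itself, 9 strong control peaks and 0 members lay within 500 kb, and the nearest member was 634.664 kb away (8.35). Around SMARCAL1, with 15 strong peaks and 0 members within 500 kb, the nearest was 1127 kb away. These lists of accessible regions do not show whether SMARCAL1 was lost.

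The list genes with a member were few and scattered. TNFSF4, the OX40 ligand, was 1 of 5 checkpoint ligand genes (8.56, inside the gene). TOPBP1, a scaffold of the replication stress response, was 1 of 23 fork and repair genes. Its members scored 9.52, inside the gene, and 9.38, 1851 bp outside it. CHD1 (8.09) and EP400 (9.03, 3200 bp outside the gene) were 2 of 16 chromatin remodeller genes. Common fragile site genes, which are very long, had members at 6 of 25 (CNTNAP2, CTNNA3, DMD, GPC5, LSAMP and WWOX), but by peak the share was 4.76% (7 of 147), close to that of all genes. NKX2-5 and LHX6 were 2 of 23 homeobox genes. The GAPDH entry rests on a peak 531 bp from an end of NCAPD2 and 1273 bp from GAPDH.

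Marker lists were counted as accessible regions and not as expression. Over all protein-coding genes, 10415 of 19974 had a strong control peak in the gene or 10 kb on each side, and no list was tested against that share. A strong control peak lay at 4 of 12 breast basal, 3 of 14 breast luminal, 11 of 17 mesenchymal and 16 of 20 neuronal genes, most of the neuronal ones long, and at 6 of 12 leukocyte, 4 of 8 melanocyte and 4 of 9 endothelial genes. Members were at 0 of the basal, luminal, mesenchymal and endothelial genes, at CD68 of the leukocyte list, at DCT (8.21) of the melanocyte list, and at DAB1 (10.6) and CNTNAP2 of the neuronal list. DAB1, a reelin pathway adaptor, had 1 member among 9 strong peaks.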

How the data were processed

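The control, clone 1 and clone 2 groups have 1 peak list each, merged by the authors over replicates, per the labels. A line gives a region and a score, and the deposited score was read from its values as a −log10 p. HISAT2, MACS2 and ChIPseeker were used with hg38 per the submitters' processing notes, whose settings no label records.

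A peak was found in a clone if at least 1 bp overlapped. Genes and promoter windows came from RefSeq, GRCh38.p14 (19974 coding genes; the promoter table is not complete). Exact binomial 95% intervals stand beside shares and hold counting error alone. Since replicates were merged, no test over replicates could be made, and read totals were not used. Weighted shares used 5 score strata and 5 width strata of the members. The outer strata are open-ended, so within a stratum the classes can still differ in score and width. Ladders of single-call scores were fitted and checked on simulated data. Motif searches in the distal members were not run, as no genome sequence was used here. Computations used Python 3.11.15 with pandas 2.3.3, numpy 2.4.6 and scipy 1.17.1.

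The members and gene lists were chosen with earlier results of these data known. Genes named are the 10 highest-scoring members, members at gene ends, genes with 2 or more members, list genes with a member, CD274 and SMARCAL1. The 3 highest absent peaks under the threshold are also named. Not every gene so taken is printed.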

Additional observations from a re-analysis of the deposited data

How the results depend on the processing

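Of 46 values recomputed under another choice, 19 stayed within the spread or range allowed, 25 moved beyond it and 2 changed sign. With a control score of at least 10 the members were 125 (1.07%), of which 30.4% were means. With a clone peak within 1000 bp counted as found, 4.98% remained absent. When clone peaks had to cover 50% of the control peak, 2965 peaks (15.5%) were absent, with a gene-end share of 17.0%, a median width of 513 bp and 51.5% means. With clone peaks above the median score of their list only, 3706 (19.4%) were absent, with 25.3%, 515 bp and 53.4%. Among control peaks whose score is a mean, 351 (2.84%) were absent, with a gene-end share of 17.7% and a median width of 474 bp. Both a stricter clone call and a stricter control call therefore change how many peaks qualify, by construction. Gene ends of 500 and 3000 bp held 11.3% and 18.4% of members. Within 20 kb, 5.15% of strong neighbours were absent in both. With 50 kb around genes, 15.4% of 266 list genes had a member, beside 11.1% of all protein-coding genes. The weightings were chosen after seeing the data. The gene-end difference was -18.8 points with equal weight per score stratum. It changed sign with equal weight per width stratum (1.19) and with weights over strata of score and width (0.989). The difference in the share of means was -26.1 over width strata and -23.6 over strata of both. No paired analysis was possible because the authors merged the replicates into 1 list per group, and leaving out each replicate was not run for the same reason. Depth is known only as the background behind the scores.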

Other observations

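Members covered the start of a long non-coding RNA in 21 of 1007 cases (2.09%, chromosome 8 not used), against 9.95% of the strong peaks found in both clones, 6.62% of those found in clone 1 only and 3.21% (2.40 to 4.18) of those found in clone 2 only. The members' interval, 1.30 to 3.17, overlaps that of clone 2 only, and these shares were not balanced for width. The highest scores were at LOC105369558 (10.8), CENATAC-DT (9.90) and LINC02779 (9.73). Others lay at SNHG4 (8.07), a small nucleolar RNA host gene that shares the MATR3 promoter peak, at AGAP2-AS1 (8.36) and at CARINH (8.38).

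No member overlapped a miRNA hairpin, and 6 hairpins lay within 1 kb of one. MIR6125 was 321 bp from the member near USP15, MIR6791 362 bp from that at GPR108, MIR5572 629 bp from one in ARNT2 and MIR6068 631 bp from one near FOXD3. MIR345 was 835 bp from the SLC25A29 member and MIR11399 851 bp from one near SLC16A1.

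On chromosome Y and on contigs outside the main chromosomes, which the members leave out, 28 of 357 control peaks above the score threshold were absent in both clones.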
